A study of Rattus norvegicus with 6 samples.

Results

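Serotonin is made from tryptophan by tryptophan hydroxylase, of which Tph1 is the form known from peripheral tissues and Tph2 the form known from neurons, and then by the decarboxylase Ddc. It acts through receptors of several families: the Htr1 receptors couple to inhibitory G proteins, the Htr2 receptors to Gq and phospholipase C, the Htr4, Htr6 and Htr7 receptors to Gs and adenylyl cyclase, and Htr3a forms a cation channel. In the carotid body, a small arterial organ that senses blood oxygen, serotonin is known as a transmitter of the glomus cells, which also make dopamine. The genes described here are the 10 listed for serotonin synthesis and serotonin receptors, Tph1, Tph2, Htr1a, Htr1b, Htr2a, Htr2b, Htr2c, Htr3a, Htr4 and Htr7, out of 14506 genes named on the array. All 10 were found by symbol, each with a single probe set.

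The cells came from carotid bodies of adult rats and grew for 10 days as neurospheres, which are floating cell clusters. RNA was hybridised to 6 Affymetrix arrays, of which 3 carry the label undifferentiated and 3 the label differentiated. The undifferentiated spheres were kept in complete neural crest medium under normoxia with added mitogens (EGF, FGF, ET-1, IGF-1), and the differentiated spheres in neural crest medium lacking mitogens at 3% oxygen, so the effects of mitogens and of oxygen cannot be told apart. The series set out to compare spheres enriched in neuronal cells with spheres enriched in undifferentiated cells. The labels name no number of animals or of independent cultures behind the 3 arrays of a group. The p-values therefore judge each difference only by the spread among these arrays, and that spread may be technical.

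Values are on a log2 scale as deposited, with array medians between 5.05 and 5.13, and every difference is labelled differentiated minus labelled undifferentiated. A gene was called at a limma adjusted p under 0.05, adjusted over all 14506 genes. Pairs of arrays correlated at 0.9857 to 0.9927 when they shared a label and at 0.959 to 0.9696 when they did not. The catecholamine enzyme Th, a defining glomus cell gene, went against the labels: it was at 10.65 to 11.32 in the arrays labelled differentiated and at 13.59 to 13.91 in those labelled undifferentiated. All 14 measured glomus cell markers fell, with a median difference of -2.44, and their mean level was 10.46 to 10.54 in the arrays labelled undifferentiated and 7.79 to 8.13 in those labelled differentiated. Whether the labels were exchanged between the groups cannot be told from the labels or values used here. An exchange is possible, and it would turn the sign of every difference given here and swap the medium and oxygen tied to each group. The groups are therefore named by their labels throughout. In these bulk samples, fewer cells of a type and less RNA per cell cannot be told apart.

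To show the letters upstream of both hydroxylase genes and of Htr1b, the called receptor gene with an entry, the 250 bases before each annotated start are given from RefSeq (GRCr8). Of the 10 genes, 6 had an entry. Tph1 is on the minus strand at chr1:106314629-106314878, Tph2 on the minus strand at chr7:52675640-52675889 and Htr1b on the minus strand at chr8:91414816-91415065. Each is written 5′ to 3′ on the gene's strand. Capitals mark matches to the 6 motifs searched, and a match on the opposite strand appears as the reverse complement.
Tph1: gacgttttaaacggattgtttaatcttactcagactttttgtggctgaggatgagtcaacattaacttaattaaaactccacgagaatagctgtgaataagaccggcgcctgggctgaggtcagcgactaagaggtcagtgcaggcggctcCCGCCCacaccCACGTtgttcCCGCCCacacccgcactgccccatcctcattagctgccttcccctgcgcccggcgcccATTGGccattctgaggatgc
Tph2: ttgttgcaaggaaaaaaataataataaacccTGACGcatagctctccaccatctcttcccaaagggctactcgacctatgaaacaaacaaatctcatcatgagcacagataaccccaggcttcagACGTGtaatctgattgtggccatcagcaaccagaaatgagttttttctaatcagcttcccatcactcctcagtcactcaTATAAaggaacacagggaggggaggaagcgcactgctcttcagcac
Htr1b: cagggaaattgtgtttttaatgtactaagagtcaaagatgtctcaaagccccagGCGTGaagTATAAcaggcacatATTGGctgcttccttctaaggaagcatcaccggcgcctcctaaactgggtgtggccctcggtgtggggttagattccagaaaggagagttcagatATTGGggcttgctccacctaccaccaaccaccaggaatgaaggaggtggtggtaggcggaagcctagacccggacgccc
The hypoxia response element core was searched as ACGTG or as GCGTG, and the cAMP response element core as TGACG. The other motifs were the CCAAT box, the TATA box searched as TATAA, and the GC box searched as GGGCGG. In the sequences shown, no match overlapped another. The Tph1 window held ACGTG 1 time, CCAAT 1 time and GGGCGG 2 times, all on the opposite strand. On the gene's strand, the Tph2 window held ACGTG 1 time, the cAMP element core 1 time and the TATA box 1 time. The Htr1b window held GCGTG 1 time and the TATA box 1 time on the gene's strand, and the CCAAT box 2 times on the opposite strand. Among all 33469 windows of this length in the table, ACGTG was in 16.6%, GCGTG in 25.9%, TGACG in 18.2%, CCAAT in 34%, TATAA in 24% and GGGCGG in 30.5%. An ACGTG core was thus present both upstream of Tph1 and upstream of Tph2, whose values on the arrays are given next. A match is a description of letters and not a binding site.

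Tph1 fell 23.6-fold in the arrays labelled differentiated, Htr2a rose 3.57-fold and Htr1b rose 1.59-fold. Of the 10 genes, 2 were thus called higher, 1 lower and 7 did not pass. Among all genes 29.5% were called, 14.7% higher and 14.9% lower, so the count of 3 in 10 is close to the background, and the median difference of the 10 was 0.12 against 0.06 for all genes. Groups did not overlap for Tph1 and Htr2a, 2 of the 10, against 42.3% of all genes.

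**Figure D1:**
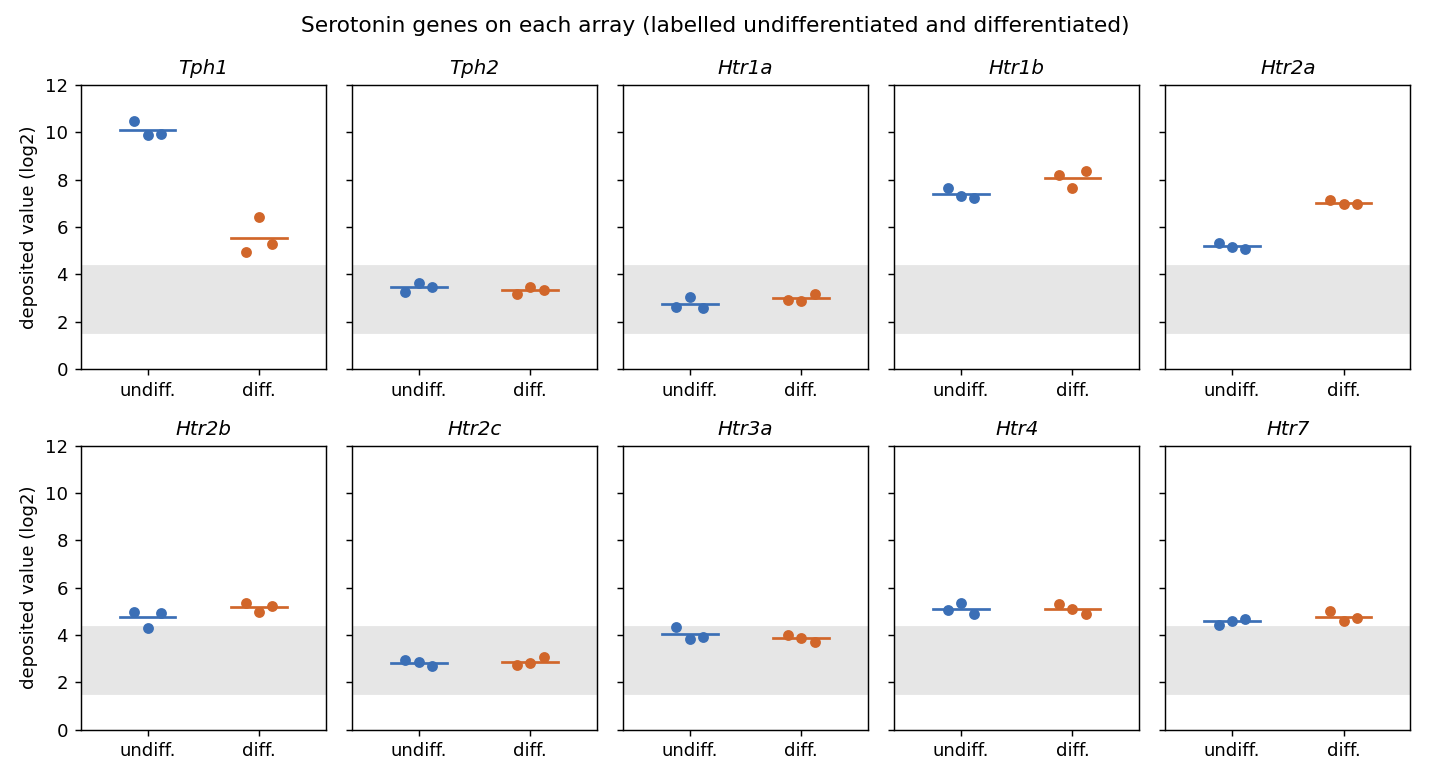
Deposited log2 value (y axis) of each of the 10 genes on the 3 arrays labelled undifferentiated (blue) and the 3 labelled differentiated (orange). Points are arrays, horizontal bars are group means, and the grey band runs from the 5th to the 95th percentile of the means of 53 olfactory receptor genes, with its upper edge at 4.35. Tph1 stands far apart between the groups, Htr2a does so in the other direction, and Tph2, Htr1a, Htr2c and Htr3a lie within the band.

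The deposited table used here holds no detection calls, so dimness was described beside reference genes. Whether some of these reference genes are expressed in these cells was not checked. The means of 53 olfactory receptor genes had a median of 2.38 and a 95th percentile of 4.35. Among the 10 serotonin genes, 6 were above that value in both groups. Tph2, Htr1a, Htr2c and Htr3a were within it in both groups. A list of 15 measured eye, sperm, pancreas, pituitary and kidney genes reached higher, with a 95th percentile of 5.71. Only Tph1, Htr1b and Htr2a of the 10 had a group mean above 5.71. Htr1b did so in both groups, Tph1 only in the arrays labelled undifferentiated and Htr2a only in those labelled differentiated. Among the olfactory receptor genes 3.77% were called, and 0 of the 15 other genes were (limma, also 0 at an unadjusted p under 0.05).

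Tph1, the first and rate-limiting enzyme of serotonin synthesis outside the brain, read 10.49, 9.88 and 9.92 in the arrays labelled undifferentiated, at the 97.1 to 98.3 percentile of all probe sets of its array. It read 4.93, 6.40 and 5.28 in those labelled differentiated, at the 47.6 to 68.7 percentile. Every array labelled differentiated lay far below the lowest array labelled undifferentiated. The difference was -4.56 ± 0.31 (SE, n = 3 per group, limma adjusted p = 1.04e-06), the fifth largest fall among the 14506 genes. The mean of 5.54 in the arrays labelled differentiated was above the olfactory receptor genes but within the range of the eye, sperm, pancreas, pituitary and kidney genes, so how far it stood over background is not known and the size of the fall is uncertain.

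The 3 arrays labelled differentiated were spread more widely for Tph1 (SD 0.77) than those labelled undifferentiated (SD 0.34), with replicate 2 the highest. Dbh, which makes noradrenaline, had its highest value of the group on the same array, with 5.79, 9.03 and 7.04 on replicates 1, 2 and 3. The Th value was highest there too, at 11.32 against 10.73 and 10.65, as was the mean of the 14 glomus cell markers, at 8.13 against 7.85 and 7.79. The list was not uniform, and Dbh had its largest SD in this group, 1.63. Epas1, Slc18a2 and Chga were lowest on replicate 2, and Kcnk3, Slc18a1, Scg2 and Syt1 were highest on replicate 1. These genes were named after their values were seen. Replicate 2 labelled differentiated also had the highest mean of 10 macrophage markers in its group, 7.85 against 7.09 and 7.02. The part of these markers in the Tph1 spread was not tested. Without that array the Tph1 difference was -4.99.

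The Tph1 difference of -4.56 was larger than the mean difference of the glomus cell markers, but within that list Dbh differed by -4.65. Tph1 minus the mean of the 14 markers was 0.03, -0.63 and -0.62 in the arrays labelled undifferentiated and -2.92, -1.72 and -2.51 in those labelled differentiated. The groups did not overlap and differed by -1.98 (exact permutation test, two-sided, p = 0.1, the smallest that 3 arrays against 3 allow; Benjamini-Hochberg adjusted p = 0.125 over 5 such comparisons, chosen after the values were seen).

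Rodent mast cells also make serotonin through Tph1, so their markers were read beside it. Of 12 measured mast cell and basophil markers, 0 were called (limma, 1 at an unadjusted p under 0.05, higher), and 10 were within the range of the olfactory receptor genes in both groups. Cpa3, the mast cell carboxypeptidase, was at 1.96 to 2.11 in the arrays labelled undifferentiated and at 2.15 to 2.34 in those labelled differentiated, without overlap but not called (adjusted p = 0.275). The mean level of the 12 was 3.01 to 3.10 and 3.13 to 3.27 in the same order. Platelets take up and carry serotonin. Of 5 measured platelet markers 0 were called (limma, also 0 at an unadjusted p under 0.05), with a mean level of 4.27 to 4.47 in the arrays labelled undifferentiated and 4.24 to 4.66 in those labelled differentiated, and the platelet chemokine Pf4, at 5.80 to 6.88 over the 6 arrays, had overlapping groups.

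By root-mean-square distance between values centred on each gene's own mean over the 6 arrays, the 3 genes nearest to Tph1 were Tmem255b (0.323), the neurokinin B precursor Tac3 (0.357) and the chemokine Cxcl14 (0.369). On replicates 1, 2 and 3 labelled differentiated, Tac3 read 5.12, 6.83 and 5.68 and Tmem255b read 7.04, 8.05 and 7.20. Their likeness to Tph1 on these arrays, a high replicate 2 included, is fixed by how they were chosen. Their falls were 4.82 for Tac3, 4.43 for Tmem255b and 4.66 for Cxcl14.

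Tph2, the hydroxylase known from serotonin neurons, read 3.23, 3.63 and 3.46 in the arrays labelled undifferentiated and 3.16, 3.47 and 3.32 in those labelled differentiated. The groups overlapped, and all values lay at the 21.3 to 26.9 percentile of their arrays. The difference was -0.13, with a 95% interval of -0.48 to 0.22 (limma adjusted p = 0.617). Since Tph2 was within the range of the olfactory receptor genes, no change in its RNA could be read from this probe set.

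Htr2a, a receptor coupled to Gq and known from smooth muscle, fibroblasts and neurons, read 5.32, 5.15 and 5.07 in the arrays labelled undifferentiated and 7.12, 6.97 and 6.96 in those labelled differentiated. The groups were separated by more than the spread within either, with SDs of 0.12 and 0.09. The difference was 1.84 ± 0.12 (SE, n = 3 per group, limma adjusted p = 6.66e-07), and Htr2a ranked 53 among the rises of all genes. It moved from the 50.2 to 53.5 percentile of its arrays to the 76.6 to 78.1 percentile. The mean of 5.18 in the arrays labelled undifferentiated was within the range of the eye, sperm, pancreas, pituitary and kidney genes. The size of the rise is therefore uncertain.

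The genes nearest to Htr2a by the same distance were Antxr1, a collagen-binding receptor (0.031), the gelatinase Mmp2 (0.065) and Sfrp4, a secreted Wnt antagonist (0.069). Antxr1 read 6.67, 6.47 and 6.46 in the arrays labelled undifferentiated and 8.41, 8.28 and 8.31 in those labelled differentiated, and Mmp2 rose by 1.89. As all 3 were chosen for likeness to Htr2a over the same arrays, their shared rise is fixed by the choice. Mmp2 is also among the fibroblast markers, of which 9 of 10 rose, with a median difference of 1.20 and Col1a1 at 1.09. Of 10 smooth muscle and pericyte markers 4 rose, among them Acta2 by 0.97, and 1, Rgs5, fell by 2.28.

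Htr2a rose by more than either list's mean. Within the fibroblast list, however, Mmp2 rose by 1.89 and Loxl1, named after its value was seen, by 1.91, both more than Htr2a. Htr2a minus the mean of the fibroblast markers was -4.23, -4.06 and -4.32 in the arrays labelled undifferentiated and -3.42, -3.67 and -3.65 in those labelled differentiated, a difference of 0.63 (exact permutation test, two-sided, p = 0.1, adjusted p = 0.125). Against the mean of the smooth muscle and pericyte markers, Rgs5 included, the difference was 1.62 (exact permutation test, two-sided, p = 0.1, adjusted p = 0.125). With Rgs5 left out, an alternative added after the data were seen, that difference was 1.34 (exact permutation test, two-sided, p = 0.1). As 3 arrays against 3 allow no exact p under 0.1, none of these comparisons could pass. The part of either cell type in the rise of Htr2a was not tested.

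The related Htr2b, also coupled to Gq, read 4.98, 4.32 and 4.93 in the arrays labelled undifferentiated and 5.36, 4.96 and 5.23 in those labelled differentiated. The groups overlapped at a single pair of values, and the difference of 0.44 did not pass (95% interval 0.02 to 0.86, limma adjusted p = 0.118). Htr2c, known mainly from the brain, was at 2.68 to 3.06 over the 6 arrays, within the olfactory receptor range, with a difference of 0.04 (95% interval -0.30 to 0.38, limma adjusted p = 0.89). Whether Htr2a changed more than Htr2b or Htr2c was not tested.

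Htr1b, an inhibitory receptor known as an autoreceptor on serotonin nerve endings and from blood vessels, lay at the 79.0 to 91.0 percentile of its arrays. It read 7.65, 7.31 and 7.23 in the arrays labelled undifferentiated and 8.20, 7.64 and 8.36 in those labelled differentiated. Replicate 2 labelled differentiated fell just below replicate 1 labelled undifferentiated, so the groups overlapped. The rise of 0.67 ± 0.18 (SE, n = 3 per group) passed (limma adjusted p = 0.0147). The call was lost when undifferentiated replicate 2 (0.63, adjusted p = 0.0585) or 3 (0.58, adjusted p = 0.0644), or differentiated replicate 1 (0.60, adjusted p = 0.0577) or 3 (0.52, adjusted p = 0.0643), was left out.

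Against either marker list Htr1b could not pass, since 3 arrays against 3 allow no exact p under 0.1. Htr1b minus the mean of the fibroblast markers differed by -0.54, without overlap between the groups (exact permutation test, two-sided, p = 0.1, adjusted p = 0.125). Minus the mean of the smooth muscle and pericyte markers it differed by 0.45, with overlapping groups (exact permutation test, two-sided, p = 0.2, adjusted p = 0.2). Without Rgs5, an alternative added after the data were seen, the second difference was 0.18 (exact permutation test, two-sided, p = 0.5). The genes nearest to Htr1b were the membrane repair gene Dysf (0.069), the transcription factor gene Foxn3 (0.100) and Zfp36l1, which promotes decay of certain mRNAs (0.106). Foxn3 and Zfp36l1 each rose by 0.71 and Dysf by 0.64, and Dysf lost its call without undifferentiated replicate 2 or 3 or differentiated replicate 1 or 3. These genes were chosen for likeness to Htr1b over the same 6 arrays, so a shared pattern is fixed by the choice.

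Htr1a, the other inhibitory receptor of the 10, was at 2.57 to 3.17 on all 6 arrays, within the olfactory receptor range, and its groups overlapped. Its difference was 0.24 (95% interval -0.14 to 0.62, limma adjusted p = 0.354). Htr3a, the subunit of the serotonin-gated channel, was at 3.71 to 4.35 and differed by -0.17 (95% interval -0.54 to 0.21, adjusted p = 0.536).

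Neither Htr4 nor Htr7, the receptors of the 10 that couple to Gs, passed the test. Htr4 read 5.04, 5.36 and 4.87 in the arrays labelled undifferentiated and 5.30, 5.09 and 4.91 in those labelled differentiated, a difference of 0.01 (95% interval -0.35 to 0.37, limma adjusted p = 0.974). Htr7 read 4.43, 4.61 and 4.69 in the first group and 4.999, 4.61 and 4.70 in the second, a difference of 0.20 (95% interval -0.14 to 0.53, adjusted p = 0.386). For both genes the groups overlapped.

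**Figure D2:**
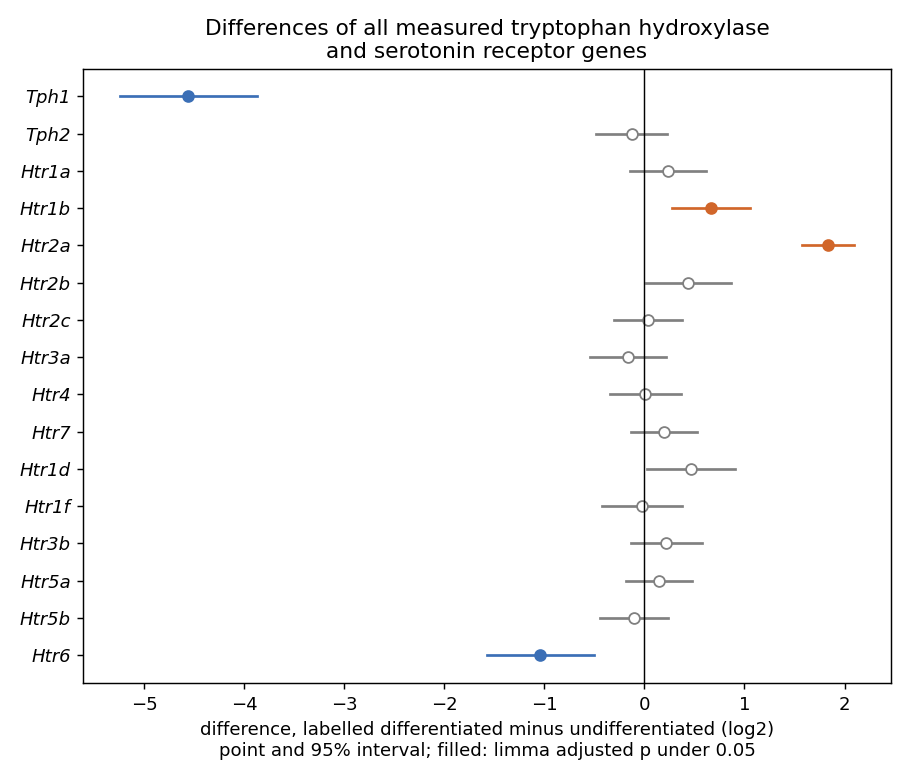
Difference, labelled differentiated minus labelled undifferentiated (x axis, log2), with its 95% interval for the 10 genes and 6 further serotonin receptor genes. Filled points passed a limma adjusted p under 0.05, blue lower and orange higher. Tph1 at -4.56 and Htr6 at -1.04 lie to the left, Htr2a at 1.84 and Htr1b at 0.67 to the right, and the other intervals lie closer to 0.

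Of 6 further serotonin receptor genes, 0 rose (limma, 1 at an unadjusted p under 0.05, Htr1d) and 1 fell. Htr6, coupled to Gs, read 5.42, 5.43 and 5.93 in the arrays labelled undifferentiated and 3.95, 4.86 and 4.85 in those labelled differentiated. Its groups did not overlap, and it fell by 1.04 ± 0.24 (SE, n = 3 per group, limma adjusted p = 0.00699). Both its group means, 5.59 and 4.55, were within the range of the eye, sperm, pancreas, pituitary and kidney genes, so the size of the fall is uncertain. Htr1d, of the inhibitory family, differed by 0.46 and Htr3b, a second channel subunit, by 0.22, and neither passed (limma adjusted p = 0.114 and 0.369). The other 4, Htr1f, Htr3b, Htr5a and Htr5b, had both group means at or below 4.35 and were not called.

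The other genes of the pathway were divided. Of 63 measured, 12 rose, 21 fell and 30 did not pass, with a median difference of -0.02 against 0.06 for all genes and with 14.7% of all genes called higher and 14.9% lower. Of 8 genes for the decarboxylase, the hydroxylase cofactor tetrahydrobiopterin and related hydroxylases, 6 fell and 1 rose. Ddc, which turns the product of Tph1 into serotonin and also makes dopamine, read 11.40, 11.47 and 11.82 in the arrays labelled undifferentiated and 8.17, 8.65 and 8.14 in those labelled differentiated. Gch1, the first enzyme of cofactor synthesis, read 8.37, 8.57 and 8.74 and then 5.13, 5.48 and 5.38, and Qdpr, which regenerates the cofactor, fell by 1.91. Gchfr, the feedback regulator of Gch1, rose by 0.51 (limma adjusted p = 0.0148). It was chosen for naming with its value known. Ddc and Gch1 serve the catecholamines as well as serotonin, and Th is also in the glomus cell list.

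**Figure D3:**
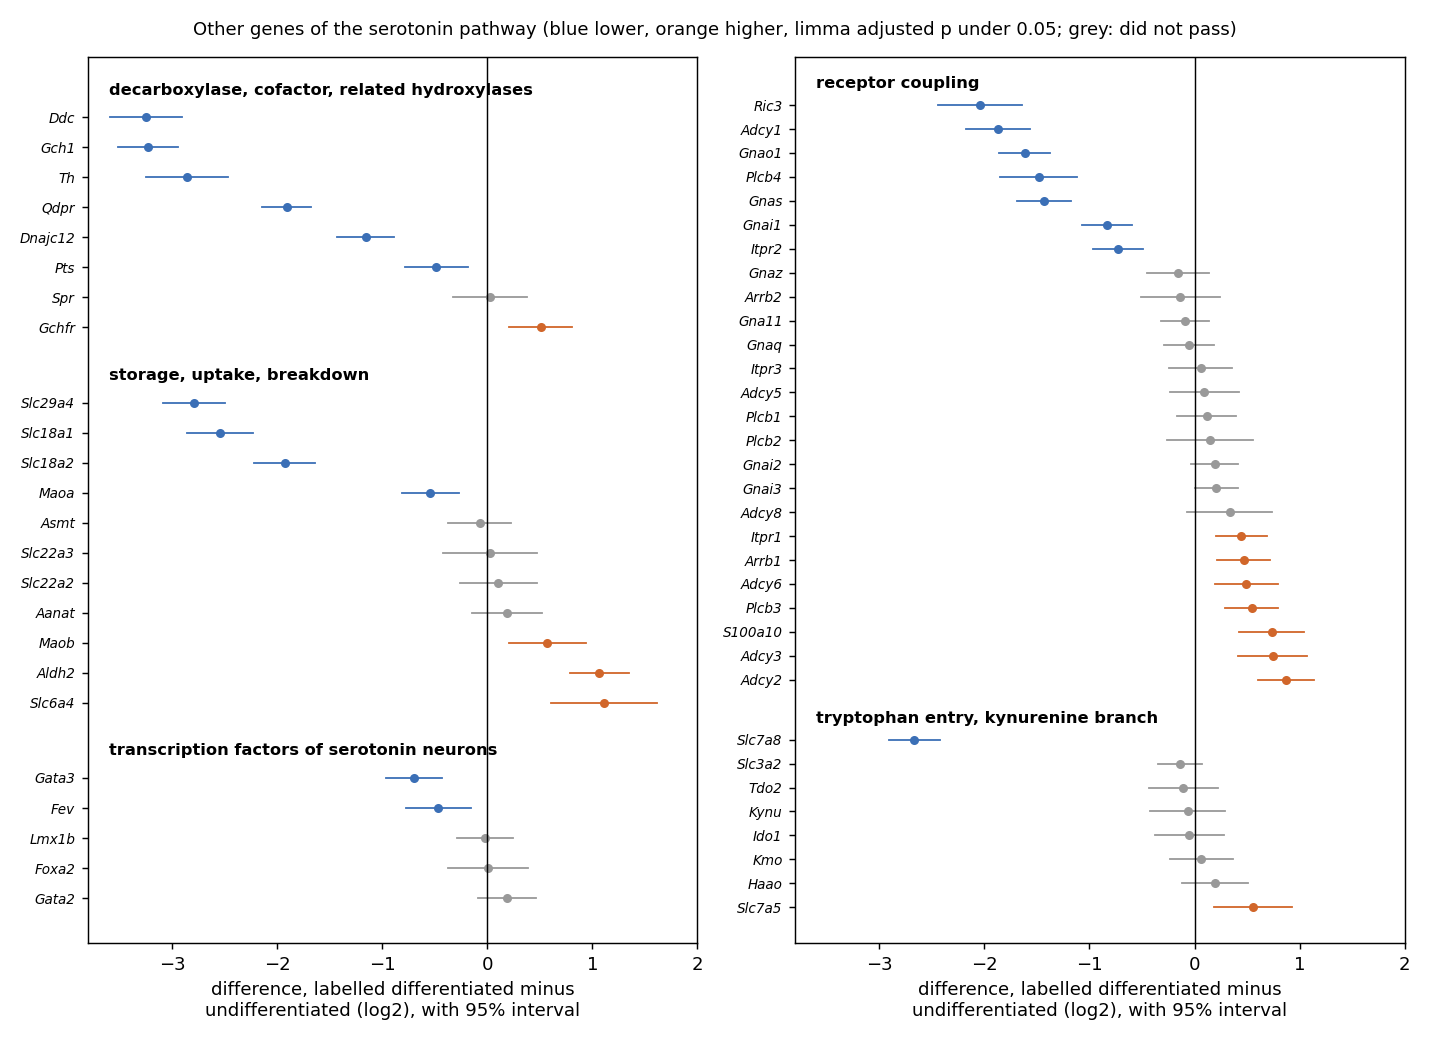
Difference, labelled differentiated minus labelled undifferentiated (x axis, log2), with its 95% interval for the other pathway genes outside the receptors, sorted within 5 lists. Blue points fell, orange points rose at a limma adjusted p under 0.05, and grey points did not pass. Ddc, Gch1, Qdpr, Slc18a1 and Slc18a2 lie to the left, while Gchfr, Slc6a4 and Aldh2 lie to the right.

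Of 11 genes of storage, uptake and breakdown, 3 rose and 4 fell. The vesicular monoamine transporters Slc18a1 and Slc18a2, both also glomus cell markers, had differences of -2.54 and -1.93, and Slc29a4, a low-affinity monoamine transporter of the plasma membrane, fell by 2.79. Slc6a4, the serotonin transporter, went the other way: it read 5.15, 5.52 and 5.13 in the arrays labelled undifferentiated and 5.94, 6.98 and 6.22 in those labelled differentiated. Its groups did not overlap and it rose by 1.11 ± 0.23 (SE, n = 3 per group, limma adjusted p = 0.00339), with its highest value on differentiated replicate 2, and by 0.82 without that array. The Slc6a4 mean of 5.27 in the arrays labelled undifferentiated was within the range of the eye, sperm, pancreas, pituitary and kidney genes. The size of its rise is therefore uncertain. Maoa, the oxidase that prefers serotonin, fell by 0.54 (limma adjusted p = 0.00588), and Aldh2, which oxidises the aldehyde made by it, rose by 1.07. Maob, the other oxidase, rose by 0.57 (limma adjusted p = 0.0231). Both its group means, 3.65 and 4.22, were within the olfactory receptor range, and leaving out any array other than differentiated replicate 2 lost its call (adjusted p = 0.0535 to 0.0908). Slc6a4, Maoa, Maob and Aldh2 were named after their values were seen.

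Among 25 genes of receptor coupling 7 rose and 7 fell. Those that fell included the G protein subunit genes Gnao1 (-1.61) and Gnas (-1.43), the adenylyl cyclase Adcy1 (-1.87) and, named after its value was seen, Ric3 (-2.04), a chaperone of nicotinic and serotonin-gated channels. In the arrays labelled differentiated, the means of Adcy1 (5.36) and Ric3 (4.87) were within the range of the eye, sperm, pancreas, pituitary and kidney genes. The sizes of their falls are therefore uncertain. Gnas has 2 probe sets, and its difference was -2.68 with the probe set of largest variance and -2.06 with their mean. The Gq subunits Gnaq and Gna11, through which the Htr2 receptors act, differed by -0.05 and -0.09 and did not pass (limma adjusted p = 0.759 and 0.591). The phospholipase Plcb3 rose by 0.54 and Plcb4 fell by 1.48, both named after their values were seen.

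Of 8 genes of tryptophan entry and the kynurenine branch 1 rose and 1 fell. Slc7a8, a transporter of large neutral amino acids such as tryptophan, fell by 2.67, while the related Slc7a5 rose by 0.56 (limma adjusted p = 0.0264). Slc7a5 had overlapping groups and lost its call without undifferentiated replicates 2 and 3 and differentiated replicates 1 and 3 (adjusted p = 0.107, 0.112, 0.101 and 0.0712). Their shared partner Slc3a2 differed by -0.14 (adjusted p = 0.336). Of 5 measured transcription factors of serotonin neurons 0 rose (limma, also 0 at an unadjusted p under 0.05) and 2 fell, Gata3 by 0.70 and Fev by 0.46. The group means of Gata3, 5.64 and 4.94, and of Fev, 5.54 and 5.07, were within the range of the eye, sperm, pancreas, pituitary and kidney genes. Fev, the factor known from serotonin neurons of the brain, lost its call without undifferentiated replicates 1 and 2 and differentiated replicates 1 and 3 (adjusted p = 0.0956, 0.0845, 0.0643 and 0.106). Gata2 differed by 0.19 (limma adjusted p = 0.322).

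**Figure D4:**
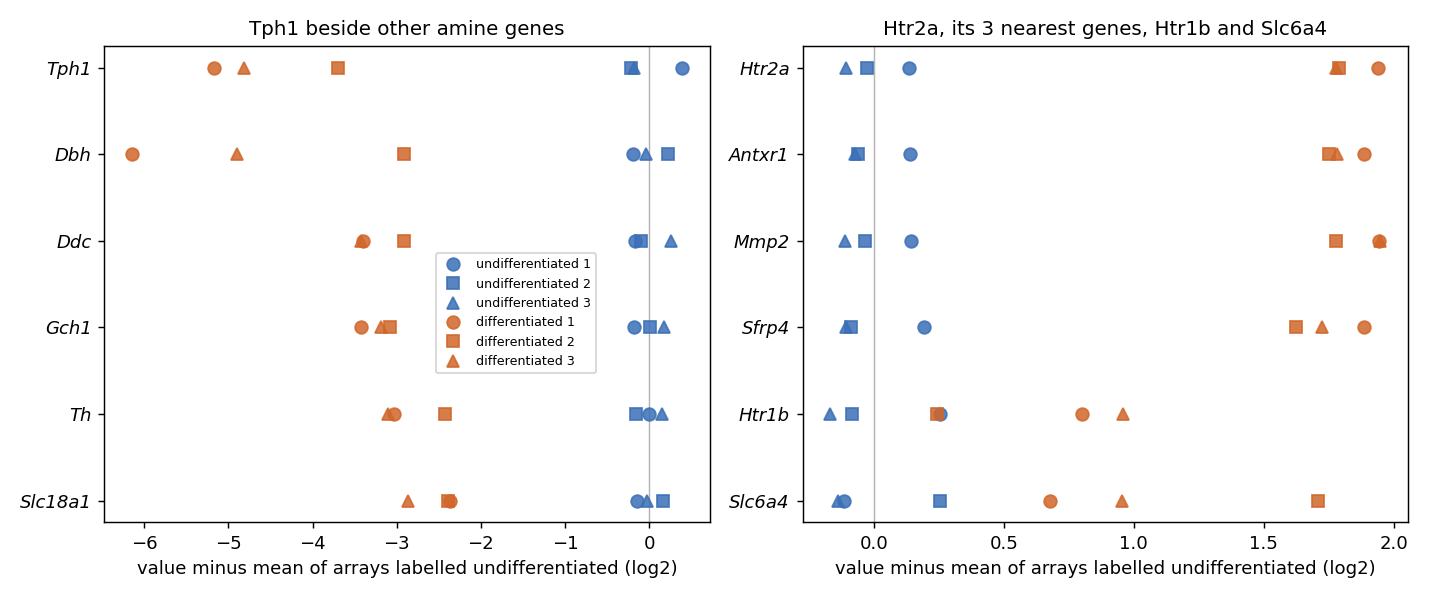
Value on each array minus the mean of the 3 arrays labelled undifferentiated (x axis, log2), with shape for the replicate number, blue for undifferentiated and orange for differentiated. On the left, differentiated replicate 2 is the highest of its group for Tph1, Dbh, Ddc, Gch1 and Th, but not for Slc18a1. On the right, Htr2a lies close to the 3 genes chosen as nearest to it, while Htr1b is lowest and Slc6a4 highest on differentiated replicate 2.

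Within the arrays labelled differentiated, replicate 2 thus had the highest Tph1 and Slc6a4 values and the lowest Htr1b value. Cd68, a macrophage marker, was at 10.06 on that array against 8.74 and 9.04 on the others of its group. The glia marker Gfap was at 5.20 there against 5.55 and 5.63, and the mean of 8 glia markers was 6.53 against 7.05 and 6.86. Over both groups 2 of 8 glia markers rose and 1 fell, 1 of 10 neuron markers rose and 3 fell, 1 of 10 endothelial markers rose and 2 fell, and 2 of 10 macrophage markers rose and 1 fell. Tubb3, a neuronal tubulin, was at 7.92 to 8.30 on all arrays, and was not called. Pecam1, an endothelial marker, was not called either, but both its group means were within the olfactory receptor range. Of the endothelial markers that changed, Cldn5, a tight junction gene, fell by 2.31, from 8.14 to 5.84, Egfl7 fell by 0.50, and the transcription factor gene Erg rose by 0.96 (all 3 named after their values were seen). The part of these cell types in the values of the serotonin genes was not tested.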

How the data were processed

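Each of the 6 arrays was hybridised with biotinylated cRNA, for which 100 ng of RNA was used, per the labels' protocols. The authors deposited log2 values for 29214 probe sets on each array. The log2 scale was inferred from the range. For background correction, normalization and software, the sources used here give no statement. The values were used without further normalization. Depth does not apply to arrays, and the number of arrays limits the precision.

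Of the 29214 probe sets, 15310 had a single gene symbol in the platform's table, 323 had several and 13581 were not listed; 99.8% of the first were matched by gene ID to the GRCr8 gene table, which changed 0 symbols. The probe set with the highest mean represented each gene. All 6 arrays entered a fit in limma 3.58.1 (R 4.3.3; lmFit, then eBayes with a trend), two-sided, with Benjamini-Hochberg adjustment over 14506 genes at 0.05. The fit was tested on simulated data. Figures were drawn with matplotlib 3.10.9.

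The genes, the lists and the rule for named genes were chosen with earlier results of these data known. The rule named all 10 genes and the 3 genes of each pathway list with the smallest p. It also named the 3 nearest genes of each called gene by centred distance, leaving out clone symbols, and 1 gene of each marker list. Most exceptions are stated with the gene. The others are Dbh, named after its value was seen, and Rgs5, Gnaq, Gna11, Htr1f, Htr5a and Htr5b. Of 73 pathway genes 63 were measured. The fit was repeated without each array, with array weights, without the trend, with a block for the replicate number, after median centring or quantile normalization, without genes whose mean was at or below percentile 40 of the probe set means, with the mean or the most variable of a gene's probe sets, and at a threshold of 0.01.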

Additional observations from a re-analysis of the deposited data

How the results depend on the processing

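Tph1 stayed called lower (-4.99 to -4.25 over the fits that omit 1 array, -4.71 to -4.54 over the others) and Htr2a called higher (1.78 to 1.90 and 1.81 to 1.85) in all 14 alternative fits run for each. Of the 10 genes, 2 were called higher, but 1 at a threshold of 0.01 and 1 to 2 over the fits that omit 1 array, through Htr1b. Over all genes, 2128 were called higher but 1356 at that threshold. The signs of Htr2c and Htr4, neither called, are not settled. Quantile normalization gave -0.044 for Htr2c and -0.020 for Htr4, and median centring gave -0.019 for Htr4. The fits that omit 1 array gave -0.054 to 0.108 for Htr2c and -0.099 to 0.144 for Htr4.

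The labels do not say that replicate numbers pair the arrays. Deviations from the group means correlated at 0.115, 0.124 and -0.00376 for numbers 1, 2 and 3, and undifferentiated replicate 3 was not best matched by its own number. With the replicate number as a block, 2238 genes were called higher and 2192 lower. Of the 10 genes, 3 were then called higher and 1 lower, Htr2b being added (adjusted p = 0.04135). Htr1d passed under array weights (adjusted p = 0.045) and when differentiated replicate 2 was omitted (adjusted p = 0.0382). For Tph2, Htr1a, Htr2c and Htr3a, values in the range of the olfactory receptor genes limit what can be read, and the filter on dim genes left them without a value.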
